A study of Mus musculus with 66 samples.

Results

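The comparison described here is that of cocaine with saline in the NAcc (nucleus accumbens, the ventral part of the striatum) of WT mice at ZT7, 4 h after the injection. It rests on 6 of the 66 libraries of the study, 3 from mice given saline and 3 from mice given cocaine, and on the 13444 of 24138 listed genes that reached 1 FPKM in at least 1 of the 6. FPKM are the reads of a gene divided by the length of its transcript and by the reads of the library. ZT, zeitgeber time, counts the hours from lights on. Mice were male, 3 to 5 months old and of the strain C57BL/6 by the labels and C57BL/6J background by the methods of the study, received saline or 20 mg/kg cocaine intraperitoneally at ZT3, and were killed at ZT7, in the resting phase. The other groups of the study were killed at ZT3, ZT11, ZT15, ZT19 or ZT23 or belonged to iMSN-D2RKO mice, which carry floxed D2R alleles and a Cre driven by the D1R promoter. No source used here says that a library is 1 animal, so the p-values measure the spread between libraries.

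Cocaine blocks the dopamine transporter and so prolongs the action of dopamine on medium spiny neurons (MSN), the main neurons of the striatum. Dopamine acts there through D1R, which raises cAMP and is found on MSN of the direct pathway, and through D2R, which lowers cAMP and is found on MSN of the indirect pathway together with the adenosine receptor Adora2a and the opioid peptide precursor Penk. D1R signalling through cAMP and MAP kinases switches on immediate early genes such as Fos, Fosb and Egr3 within minutes to hours, and their mRNA mostly declines soon after. The study asked how a single injection alters the daily program of gene expression, with PPARγ, a nuclear receptor, as a candidate regulator. ZT7 is its first time point after the drug.

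The libraries carried the markers of striatal neurons, which were not used to tell the NAcc from other striatum. Markers of other cell types and regions varied between the libraries, as given below. MSN markers were abundant in all 6 libraries, with Ppp1r1b (DARPP-32, the dopamine- and cAMP-regulated phosphatase inhibitor of these neurons) between 999.1 and 1791 FPKM and Penk between 969.0 and 1836 FPKM. Summed FPKM lay between 384279 and 413939 in the 6 libraries, and between 12708 and 12892 genes had 1 FPKM or more. The depth in reads is unknown, and a relative depth estimated from the smallest steps of the values lay between 0.876 and 1.17. Along the main axis of the differences within groups, 13 of the 66 libraries stood apart, and none of the 6 was among them. Ttr, the transthyretin gene that marks choroid plexus, lay at most at 0.118 FPKM in the 6 libraries.

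At an adjusted p under 0.05, 1 gene differed between cocaine and saline and it was higher after cocaine, which is 0.00744% of the genes tested. This was Tagap (XLOC_008533, chromosome 17 from 7926000 to 7934897 of GRCm38, which is mm10), a gene known from activated T cells. Its FPKM was 0.240, 0.332 and 0.248 in saline and 1.23, 1.22 and 0.420 in cocaine. All cocaine values lay above all saline values, but replicate 3 was close to saline, and both groups lay near or below the minimum of 1 FPKM. Only replicates 1 and 2 of cocaine reached that minimum, so Tagap was tested only because of the group in which it was high. The saline mean was 0.273 ± 0.0510 and the cocaine mean 0.957 ± 0.465 (SD, n = 3 each), and the log2 fold change was 0.59 on the log2(FPKM + 1) scale, with a standard error of 0.11 and an adjusted p of 0.0399 from limma. On that scale the change of genes with low FPKM is understated. The adjusted p of Tagap ranged from 2.30e-06 to 1 over the alternatives and was 0.816 when the 6 libraries were fitted alone. Without replicate 3 of cocaine the adjusted p was 7.10e-06, and without any 1 of the other 5 libraries it was 0.123 to 0.685, past the threshold in none of these fits. In the other 27 WT libraries, Tagap ran from 0.178 to 0.661 FPKM, so that replicates 1 and 2 of cocaine lay above them.

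For the other genes the test left no call. Unadjusted p-values under 0.05 were found for 101 genes that were higher (0.751%) and 151 that were lower (1.12%) after cocaine. When the 6 libraries were fitted alone, 0 genes were called by limma, 334 higher genes (2.48%) and 411 lower genes (3.06%) had an unadjusted p under 0.05, and the smallest adjusted p was 0.510. All 3 cocaine libraries lay above all 3 saline libraries for 646 genes (4.81%) and below them for 565 genes (4.2%). Of all genes tested, 91.9% had a 95% interval of the log2 fold change that lay within a 2-fold difference in either direction. The median log2 fold change was 0.00.

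**Figure D1:**
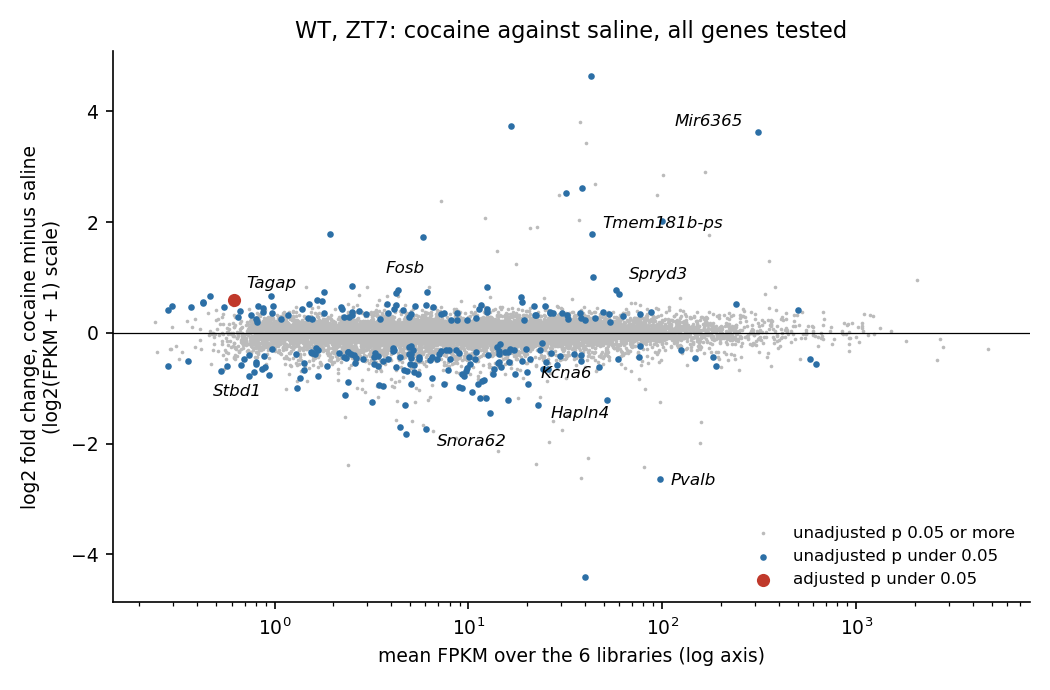
Each point is 1 of the 13444 genes tested, with its mean FPKM over the 6 libraries on a log axis and its log2 fold change, cocaine minus saline, on the log2(FPKM + 1) scale. Tagap, the red point, has an adjusted p under 0.05, the 252 blue and red points have an unadjusted p under 0.05, and several of the points far from 0 are short RNAs such as Mir6365 that were above 0 in 1 library.

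The distances between libraries gave the same picture. The root mean square difference in log2(FPKM + 1) over all genes tested was 0.322 to 0.351 between saline libraries. It was 0.331 between replicates 1 and 2 of cocaine, and 0.413 and 0.415 between replicate 3 and these. Between treatments it averaged 0.376, against 0.361 within treatments, a difference of 0.0140 (exact permutation test over the 6 libraries, two-sided, p = 0.7, where 0.1 is the smallest p that 3 against 3 libraries allow). Replicate 3 of cocaine was at 0.334 to 0.342 from the saline libraries, nearer to them than to the other cocaine libraries. Without it the difference between treatments was 0.0597 (exact permutation p = 0.1, the smallest that 2 against 3 libraries allow).

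Among genes with a mean of at least 5 FPKM, Tmem181b-ps, a pseudogene, and Spryd3, which encodes a protein with a SPRY domain, had the smallest p-values of those higher after cocaine. Tmem181b-ps was at 18.7, 16.7 and 15.3 FPKM in saline and at 94.8, 89.5 and 26.2 in cocaine (log2 fold change 1.79, standard error 0.42, adjusted p = 0.418 from limma). The groups did not overlap, and replicate 3 was again nearest to saline. Without that library Tmem181b-ps was called, with a log2 fold change of 2.38 and an adjusted p of 0.00997 from limma. Spryd3 was at 41.5, 39.7 and 45.5 FPKM in saline and at 71.0, 83.4 and 65.6 in cocaine (log2 fold change 0.78, standard error 0.21, adjusted p = 0.9999 from limma). Here all 3 cocaine libraries were well above saline. The other 15 WT libraries without cocaine, however, had 47.6 to 87.9 FPKM of Spryd3, so the saline libraries of ZT7 were the ones outside that range. Without the 13 libraries that stand apart, Spryd3 was the 1 gene called (adjusted p = 0.00444 from limma) and Tagap was not (adjusted p = 0.144).

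Further genes on the higher side were Pisd-ps1 and Pisd-ps2, copies of the gene for phosphatidylserine decarboxylase, Ccno, a cyclin O gene, and Zdhhc14, a palmitoyltransferase gene. Pisd-ps1 was at 21.34, 33.01 and 32.51 FPKM in saline and 73.85, 52.55 and 51.59 in cocaine. Ccno was at 4.90, 4.45 and 3.73 FPKM in saline and 6.82, 9.27 and 7.72 in cocaine. For these genes the groups did not overlap, and the fold of the means was 2.05 for Pisd-ps1 and 1.82 for Ccno. Reads of the Pisd copies could be shared between them and with Pisd, so their values are uncertain. The 4 remaining genes of this side, Mir6365, Mir6372, Mir6387 and Mir6390, were each listed above 0 in 1 of the 6 libraries, in replicate 1 of cocaine for Mir6365 at 1864 FPKM, for Mir6372 at 231 FPKM and for Mir6390 at 34.96 FPKM, and in replicate 3 for Mir6387 at 191.8 FPKM. On the lower side Snora62 was of the same kind, at 36.3 FPKM in replicate 2 of saline and at 0 elsewhere.

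On the lower side, Kcna6, a voltage-gated potassium channel (Kv) subunit, was at 23.2, 23.7 and 25.8 FPKM in saline and 16.3, 14.5 and 21.5 in cocaine (log2 fold change -0.47, standard error 0.14). Kcnj9, a G protein-gated inward rectifier, was at 17.8, 25.6 and 32.6 FPKM in saline and 13.01, 15.48 and 15.81 in cocaine. Mark4, a microtubule-associated kinase, was at 28, 30.2 and 32.2 FPKM and 22.6, 24.4 and 22.8. In these genes, as in the proline transporter Slc6a7, no cocaine value reached the saline values, and the cocaine libraries were alike for Mark4, Kcnj9 and Slc6a7. Their limma adjusted p was 0.9999 each. Hapln4, a link protein of the perineuronal net, instead was at 23, 31.2 and 36.7 FPKM in saline, at 7.14 and 5.92 in replicates 1 and 2 of cocaine and at 33.1 in replicate 3. Cdk18, Kcnab3 and Mast1 followed the same course, low in replicates 1 and 2 and within the saline range in replicate 3.

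The log2 fold change was beyond 1 in either direction for 74 genes, 37 of them short RNAs named as miRNA, snoRNA and the like. Of the other 37, the groups did not overlap for 8, among them Pisd-ps1, Tmem181b-ps, Nrn1, Pnoc and Oxt. Of all 13444 genes tested they did not overlap for 1211. The 37 were picked by their fold change in the same 6 libraries, so their share is not separate evidence. Nrn1, the activity-regulated gene neuritin, was at 14.3, 14.8 and 21.9 FPKM in saline and 6.59, 7.25 and 7.23 in cocaine (log2 fold change -1.14, standard error 0.67). Over the other 15 WT libraries without cocaine it spread from 4.39 to 40.5 FPKM, a range that holds both groups. Oxt, the oxytocin gene of the hypothalamus, was listed at 0 in all 3 cocaine libraries and at 2.48, 3.19 and 8.77 FPKM in saline.

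Of the immediate early genes, 24 were tested and 18 had a positive log2 fold change, with a median of 0.13, against 51.4% of all genes and a median of 0.00. The log2 fold changes ran from -0.66 to 0.78, and 6 were negative. None was called. At an unadjusted p under 0.05, 3 were higher (Crem, Egr3 and Fosb) and 0 lower, against 0.751% and 1.12% of all genes. For 5 the cocaine libraries lay above all saline libraries (20.8%, against 4.81% of all genes), and for 0 below them (4.2% of all genes). With the 6 libraries fitted alone, 5 of the 24 were higher at an unadjusted p under 0.05 (2.48% of all genes) and 0 lower. Fosb, a partner of Jun proteins in the transcription factor AP-1, was at 2.82, 2.85 and 2.80 FPKM in saline and 4.93, 8.96 and 3.78 in cocaine, a mean of 2.82 ± 0.0270 against 5.89 ± 2.72 (SD, n = 3, log2 fold change 0.78, standard error 0.33, unadjusted p = 0.0216, adjusted p = 0.9999 from limma). Egr3, a zinc finger factor, was at 47.4, 36.4 and 46.55 FPKM in saline and 63.0, 113 and 50.4 in cocaine. Crem, whose short products repress cAMP-driven transcription, was at 5.18, 4.23 and 4.89 FPKM in saline and 6.27, 9.72 and 5.86 in cocaine. In all 3 genes replicate 2 of cocaine was the highest and replicate 3 the lowest of its group. The stress gene Gadd45b, with 21.5 FPKM in replicate 2 of cocaine against 9.01 to 10.2 in saline, shared that course.

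Fos itself was at 2.98, 2.41 and 2.96 FPKM in saline and 3.08, 3.29 and 3.64 in cocaine. All cocaine values were higher, but the fold of the means was 1.20 and the 95% interval of the log2 fold change ran from -0.83 to 1.23. Elsewhere in the series Fos varied much more, from 1.95 to 46.0 FPKM over the other 15 WT libraries without cocaine, and Fosb from 2.29 to 37.0 FPKM. Egr1, Arc and Nr4a1, other activity-driven genes, had log2 fold changes of 0.06, 0.02 and 0.14 with overlapping groups. Npas4, a neuronal activity factor, was at 4.10, 2.46 and 2.46 FPKM in saline and 2.70, 7.63 and 6.68 in cocaine.

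**Figure D2:**
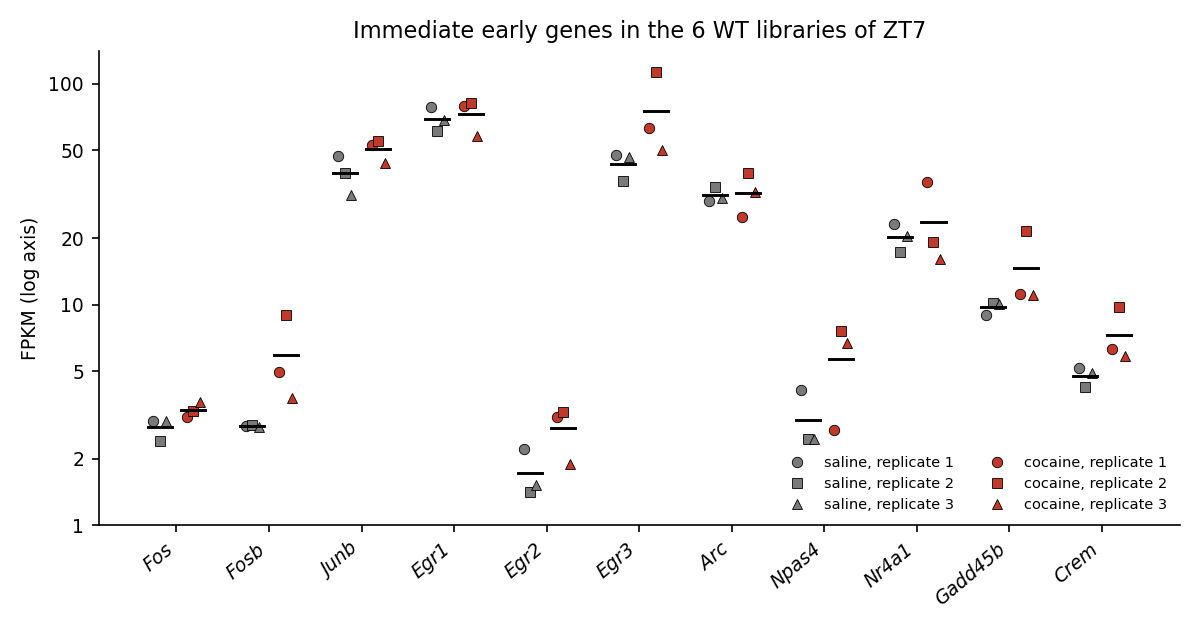
FPKM on a log axis of 11 immediate early genes in the 3 saline (grey) and 3 cocaine (red) WT libraries of ZT7, with replicates 1 to 3 as circle, square and triangle and the mean as a bar. The cocaine points lie above all saline points for Fos, Fosb, Egr3, Gadd45b and Crem, and replicate 2 of cocaine is the highest for Fosb, Egr3, Gadd45b and Crem.

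The stretches upstream of Fosb and Fos are shown because Fos is the textbook target of cAMP signalling in MSN and Fosb had the largest log2 fold change of the list. They are the 150 bases before the start of each gene, from RefSeq on GRCm38.p6, written 5′ to 3′ on the strand of the gene, and capitals mark TGACG, the core of the cAMP response element, searched on both strands.
Fosb, chr7:19310046-19310195, minus strand: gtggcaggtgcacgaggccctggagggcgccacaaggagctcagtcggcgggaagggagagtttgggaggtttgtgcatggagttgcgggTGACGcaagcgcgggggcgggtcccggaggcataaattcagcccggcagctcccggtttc
Fos, chr12:85473740-85473889, plus strand: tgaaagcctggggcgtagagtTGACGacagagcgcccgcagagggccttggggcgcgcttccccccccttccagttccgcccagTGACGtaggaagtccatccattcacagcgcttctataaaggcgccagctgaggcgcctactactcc
The match in Fosb begins 60 bases before the start, and those in Fos begin 129 and 66 bases before it. Within 250 bases upstream, TGACG was found for 13 of the 19 immediate early genes with a sequence in the table, and for 19.8% of the 27025 genes in it. A match is a stretch of letters, not evidence that a factor binds there.

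The late response and plasticity genes, which follow the first wave, had a median log2 fold change of 0.19 over 21 genes, 15 of them positive and none with an unadjusted p under 0.05. That median was 0.07 without replicate 2 of cocaine and 0.29 without replicate 3. The log2 fold changes ran from -1.14, that of Nrn1 described above, to 0.66. For 2 genes the cocaine libraries lay above all saline libraries (9.52%, against 4.81% of all genes), and for 1 below them (4.76%, against 4.2%). Inhba, a subunit of activin, was at 3.62, 1.59 and 2.83 FPKM in saline and 3.96, 7.62 and 3.24 in cocaine (log2 fold change 0.66, standard error 0.36). Plk2, a synaptic kinase, was at 92.7, 84.2 and 82.5 FPKM against 106, 134 and 90.7. In both genes replicate 2 was the highest. MAP kinase phosphatases and feedback inhibitors had a median of 0.04 over 18 genes. Glucocorticoid-induced genes had one of 0.08 over 20, with Lcn2 the 1 gene at an unadjusted p under 0.05 and at 2.255 FPKM in replicate 3 of cocaine, against 0.166 FPKM at most in the other 5 libraries. Adjusted p-values of limma were above 0.05 for all genes of these lists.

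Of 32 genes for dopamine receptors and cAMP signalling, 28 had a positive log2 fold change (87.5%, against 51.4% of all genes), with a median of 0.29. For 10 of them (31.2%, against 4.81% of all genes) the cocaine libraries lay above all saline libraries and for none below them (4.2% of all genes), and none was called. Drd1, the gene of D1R, was at 82.3, 70.9 and 70.9 FPKM in saline and 92.2, 119 and 83.5 in cocaine (log2 fold change 0.38, standard error 0.21). Drd2, the gene of D2R, was at 118, 109 and 104.5 FPKM in saline and 131, 166 and 120 in cocaine (0.31, standard error 0.41). In the fit of all libraries, Arpp21, a cAMP-regulated phosphoprotein of MSN, was the 1 gene of the list with an unadjusted p under 0.05. It was at 471, 386 and 415.5 FPKM against 570, 694 and 458. Replicate 2 of cocaine was the highest of the 6 libraries for each of the 3. Fitted in the 6 libraries alone, 10 of the 32 genes were higher at an unadjusted p under 0.05 in limma and 0 lower. Of all genes, 2.48% were higher and 3.06% lower at that level in that fit, and 0 were called.

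MSN markers, a list that shares 10 of its 16 genes with the former, had 15 of 16 positive log2 fold changes and a median of 0.34. Fitted in the 6 libraries alone, 7 of the 16 were higher at an unadjusted p under 0.05 (2.48% of all genes) and 0 lower. Their summed level was 4241 to 4568 FPKM in saline and 5293, 7290 and 4580 FPKM in cocaine, so that replicate 3 equalled saline and replicate 2 stood highest. Fosb, Egr3, Crem and Gadd45b had the same order of cocaine libraries as these markers, and Fos and Npas4 had another. Without replicate 2 of cocaine the median was 0.18 for MSN markers, 0.16 for dopamine and cAMP genes and 0.10 for immediate early genes, and without replicate 3 it was 0.48, 0.38 and 0.21. In bulk tissue, more RNA per cell and more cells of a type cannot be told apart. Tac1 (substance P) was at 222, 226 and 211 FPKM in saline and 297, 368 and 238 in cocaine, and Pdyn (dynorphin), at 65.4, 51.7 and 48.7 FPKM against 98.3, 89.4 and 59.6, overlapped in 1 library. Both are peptides of direct pathway MSN. Penk was at 1065, 969 and 1205 FPKM against 1223, 1836 and 1043.

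Oligodendrocyte markers and Pvalb were low in 2 of the 3 cocaine libraries. All 14 oligodendrocyte markers had a negative log2 fold change, with a median of -0.45, and 0 of 14 an unadjusted p under 0.05. With 1 library left out the median ran from -0.77 to -0.26. Their summed level was 5158 to 6477 FPKM in saline, 3019 and 3444 FPKM in replicates 1 and 2 of cocaine and 6635 FPKM in replicate 3. Mbp, the myelin basic protein gene, was at 2714, 2887 and 3368 FPKM in saline and 1520, 1805 and 3462 in cocaine. Pvalb, the marker of fast-spiking interneurons and of pallidal neurons, was at 72.8, 166 and 193 FPKM in saline, at 6.67 and 8.74 in replicates 1 and 2 of cocaine and at 134 in replicate 3. Its log2 fold change of -2.63 had a 95% interval from -5.05 to -0.21. Slc17a6, a glutamate transporter of thalamic, septal and hypothalamic neurons, followed the same order, with 3.21, 7.05 and 13.55 FPKM in saline and 0.802, 0.537 and 5.55 in cocaine. Of the 14 interneuron markers, which include Pvalb, 10 instead had a positive log2 fold change, and the median was 0.17. For 3 of the 14 (21.4%, against 4.81% of all genes) the cocaine libraries lay above all saline libraries, and for 0 below them (4.2% of all genes).

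Cortical markers instead were low in replicate 3 of cocaine. Slc17a7, the glutamate transporter of cortical neurons, was at 125, 94.2 and 85.4 FPKM in saline, at 91.1 and 78.9 in replicates 1 and 2 of cocaine and at 16.3 in replicate 3. The median of the list was -0.43, and 0.02 without that library. Replicate 3 also had 0.266 FPKM of Neurod6, against 4.29 to 6.43 in the other 5 libraries. Microglia markers were higher after cocaine for 14 of 16 genes, with a median log2 fold change of 0.20, and for 6 of 16 (37.5%, against 4.81% of all genes) the cocaine libraries lay above all saline libraries. Among these was Csf1r, the receptor that microglia need to survive, at 32.2, 32.5 and 30.7 FPKM in saline and 33.6, 40.5 and 40.6 in cocaine. With the 6 libraries fitted alone, 6 of the 16 microglia markers were higher at an unadjusted p under 0.05 (2.48% of all genes) and 0 lower. Oligodendrocyte precursor markers had a median of -0.08, with 0 of 8 higher, astrocyte markers one of -0.13, interneuron markers one of 0.17, septal, pallidal and hypothalamic markers one of -0.33, those of olfactory tubercle and islands of Calleja one of 0.12, and endothelial and mural markers one of 0.03. Blood cell markers, of which 6 of 14 were tested, had a median of 0.19. Among them S100a9 was the 1 gene at an unadjusted p under 0.05, with a log2 fold change of 0.53 (0 without replicate 3 of cocaine). Meningeal markers had a median of 0.05 over 5 genes, and choroid plexus and ependymal markers one of -0.23 over 6. Of the latter, Clic6 was the 1 gene at that level, and it was higher. The part of these marker levels in the differences of other genes was not tested.

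**Figure D3:**
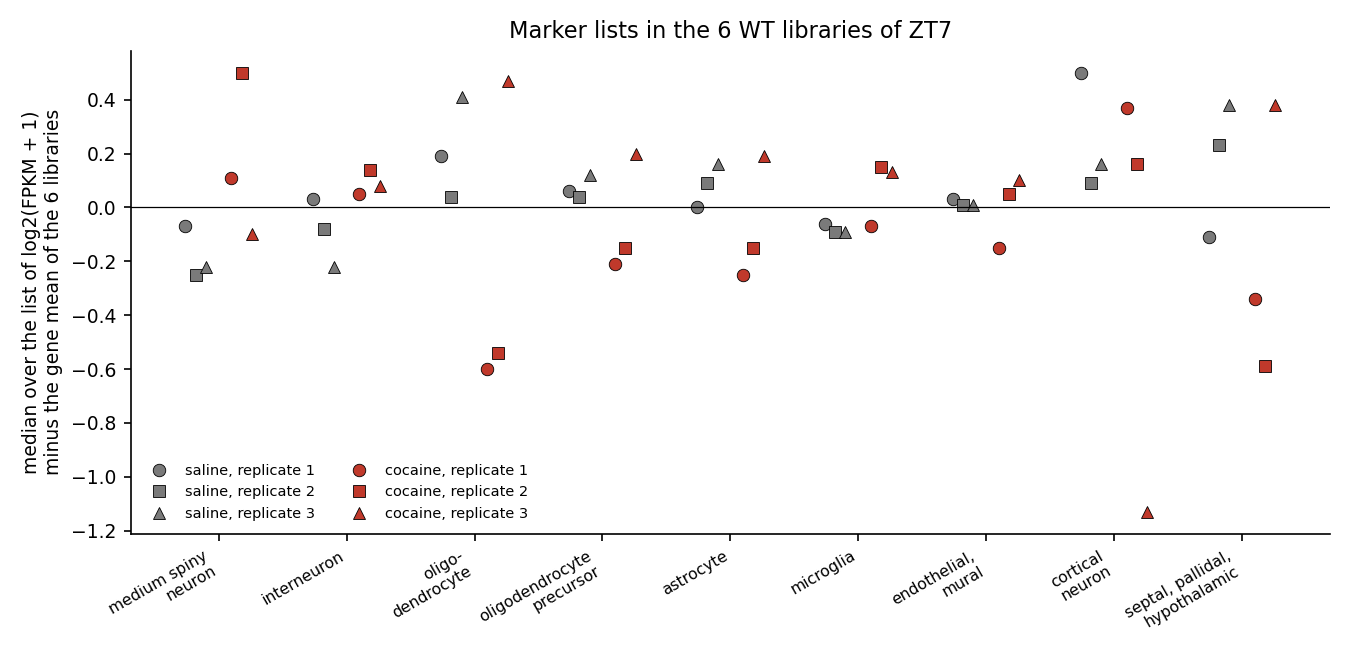
For each list of cell type markers, the median over its genes of log2(FPKM + 1) minus the mean of the gene over the 6 libraries, with saline in grey, cocaine in red and replicates 1 to 3 as circle, square and triangle. Replicates 1 and 2 of cocaine lie at -0.60 and -0.54 for oligodendrocytes and replicate 3 at 0.47, while for cortical neurons replicate 3 lies at -1.13.

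Among 27 Kv channel subunits, Kcna6, Kcnip1, Kcnc2 and Kcnc4 had an unadjusted p under 0.05 and were lower, 4 of 27 (none was higher at that level) against 1.12% of all genes. Kcna5, Kcnab1, Kcnd2 and Kcnip2 instead were higher in all 3 cocaine libraries than in any saline library, 4 of 27 (14.8%) against 4.81% of all genes, and Kcna6 was lower in all 3. Kcnc2, a subunit of the fast channels of Pvalb neurons, was at 11.7, 14.9 and 20.0 FPKM in saline and 4.84, 3.09 and 14.3 in cocaine. In Kcnc2, Kcnip1 and Kcnc4, replicates 1 and 2 of cocaine lay below saline and replicate 3 within its range. The median of the list was -0.04, with 12 of 27 positive, and fitted in the 6 libraries alone it had 3 higher and 4 lower genes at an unadjusted p under 0.05. Other ion channel lists had a median of 0.07 over 13 GABA-A receptor subunits and of 0.08 over 30 genes of ionotropic glutamate receptors. In the opioid and cannabinoid list, Faah, the enzyme that degrades anandamide, was at 8.37, 9.60 and 10.4 FPKM in saline and 6.95, 5.385 and 7.38 in cocaine (log2 fold change -0.47, standard error 0.22, unadjusted p = 0.0387). Of the neuropeptides, Pnoc, the precursor of nociceptin, was at 2.63, 5.59 and 6.33 FPKM in saline and 1.84, 0.378 and 2.37 in cocaine. The groups did not overlap for Faah and Pnoc. The 16 neuropeptides had a median of -0.18 and the 12 opioid and cannabinoid genes one of 0.00.

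In the lists of the PPAR pathway, 0 genes had an unadjusted p under 0.05 in the fit of all libraries. The paper's case for PPARγ rests on other measures, among them motifs near rhythmic genes, nuclear PPARγ staining, promoter binding, quantitative PCR and pioglitazone. The comparison at 1 time point repeats none of these. Pparg, the gene of PPARγ, did not reach the minimum of 1 FPKM, and was at 0.362, 0.447 and 0.390 FPKM in saline and 0.223, 0.101 and 0.427 in cocaine. PPAR and RXR receptors and their coregulators had a median log2 fold change of 0.03 over 16 genes, and the textbook PPAR target genes one of -0.03 over 24. The study followed Adora2a, Kcnd1 and Gabrd as targets of PPARγ, a choice made on these mice, so that their direction is not independent evidence. Adora2a, the adenosine receptor of indirect pathway MSN, was at 212, 206 and 184 FPKM in saline and 241, 312 and 200 in cocaine (log2 fold change 0.30, 95% interval -0.43 to 1.02). Kcnd1, a subunit of A-type potassium channels, was at 4.90, 3.92 and 4.37 FPKM against 4.72, 5.32 and 4.50 (0.12, interval -0.19 to 0.42). Gabrd, the delta subunit of extrasynaptic GABA-A receptors, was at 103.5, 115 and 96.9 FPKM against 115, 128 and 105 (0.14, interval -0.50 to 0.78). Groups overlapped for all 3 genes, and none had an unadjusted p under 0.05. Genes for phospholipase A2 enzymes and prostaglandins, the source of PPARγ ligands, had a median of 0.00 over 20 genes, and those of phosphatidylcholine metabolism one of -0.05 over 28.

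Clock genes, which drive the daily rhythm through the feedback of Per and Cry proteins on Clock and Arntl (Bmal1), had log2 fold changes from -0.58 to 0.42. Over 20 genes the median was 0.07, 16 were positive (80%, against 51.4% of all genes) and 0 had an unadjusted p under 0.05. The cocaine libraries lay above all saline libraries for 3 genes (15%, against 4.81% of all genes). They lay below them for 1 gene (5%, against 4.2%). Arntl was at 9.01, 8.54 and 10.2 FPKM in saline and 9.68, 12.9 and 8.94 in cocaine, Cry1 at 10.9, 11.6 and 13.1 FPKM against 11.9, 14.3 and 11.3. Per1 was at 30.5, 31.8 and 24.7 FPKM against 36.3, 29.9 and 28.0. Dbp, an output factor of the clock, was at 143, 169 and 147 FPKM against 186, 209 and 158, and the 95% interval of its log2 fold change ran from -0.43 to 0.95. The chaperones had a median of 0.06 over 40 genes and 0 with an unadjusted p under 0.05, and Cirbp and Rbm3, the cold-inducible RNA-binding genes, had log2 fold changes of -0.02 and -0.17.

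Tagap, Tmem181b-ps and Tagap1 lie near each other on chromosome 17. This was noticed after the values were seen. Of 12642 genes with a position, 1.93% had an unadjusted p under 0.05, and of the 67 in the first 20 Mb of chromosome 17 there were 8 (11.9%), against 4 of 549 (0.729%) on the rest of that chromosome. The 8 were Pisd-ps2, Zdhhc14, Tmem181b-ps (from 6439002 to 6450994), Tagap1 (from 6954965 to 6961565), Fndc1 (from 7738569 to 7827340), Tagap, Rsph3a and 1700110C19Rik. Fndc1, a gene with fibronectin domains, was at 1.52, 1.09 and 0.960 FPKM in saline and 2.96, 2.64 and 1.33 in cocaine. Tagap1, a paralog of Tagap, was at 7.40, 7.51 and 7.73 FPKM in saline and 4.53, 4.78 and 6.80 in cocaine. So replicates 1 and 2 of cocaine were high for Tmem181b-ps, Fndc1 and Tagap and low for Tagap1, and replicate 3 was near saline for each of the 4. For Zdhhc14 replicate 3 was near saline too, at 22.7 FPKM against 22.5 in replicate 3 of saline. For Pisd-ps2, Rsph3a and 1700110C19Rik, replicate 3 instead lay with the other cocaine libraries. Pisd-ps2 was at 8.31, 9.29 and 7.95 FPKM in saline and 21.5, 13.3 and 14.1 in cocaine. Rsph3a was at 1.83, 1.715 and 2.12 FPKM against 1.07, 1.37 and 1.31.

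Across the other 60 libraries, the highest value of Tmem181b-ps (206 FPKM), Tagap (0.661 FPKM) and Fndc1 (6.52 FPKM) was in 1 and the same library, replicate 3 of WT cocaine at ZT15, which also had 5.09 FPKM of Tagap1. Tmem181b-ps was also at 50.6, 56.9 and 54.98 FPKM in the cocaine libraries of WT at ZT11, against 19.8, 22.01 and 18.04 in saline, while Tagap was at 0.263, 0.489 and 0.321 there, against 0.422, 0.467 and 0.357. In WT cocaine at ZT15 it was at 59.0 and 46.5 FPKM in replicates 1 and 2. In the iMSN-D2RKO mice killed at ZT3, Tmem181b-ps was at 63.8 FPKM in replicate 1. Within WT, the 18 libraries without cocaine had 14.5 to 24 FPKM of Tmem181b-ps, the 9 cocaine libraries of ZT7, ZT11 and ZT15 had 26.2 to 206 FPKM, and the 6 of ZT19 and ZT23 had 16.4 to 25.1 FPKM. This split of the times was made with the values known. Within iMSN-D2RKO, pooled over all times, the values overlapped, with 13.6 to 63.8 FPKM without cocaine and 17.4 to 73.9 FPKM with it. Taken by time, the iMSN-D2RKO cocaine libraries of ZT23, at 73.9, 54.7 and 52.2 FPKM, lay above those of saline, at 21.2, 39.97 and 19.2. At ZT19 they lay below, at 18.94, 18.9 and 17.4 FPKM against 21.2, 36.2 and 27.3. At ZT7, ZT11 and ZT15 the iMSN-D2RKO groups overlapped. Reads of these pseudogenes and paralogs could be shared with their copies.

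**Figure D4:**
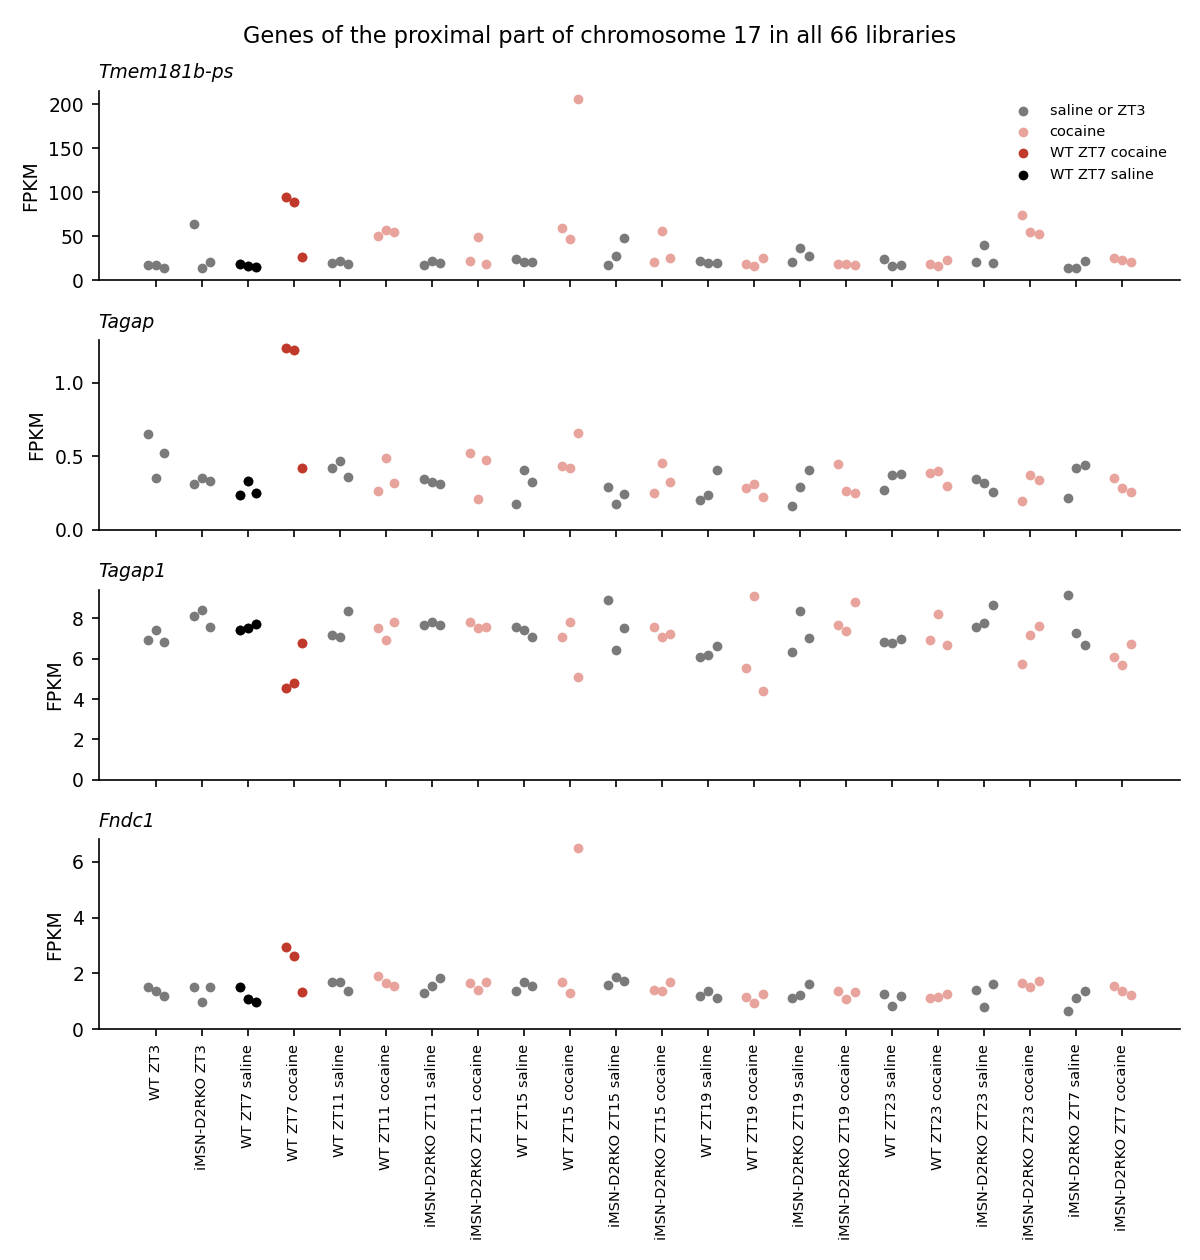
FPKM of Tmem181b-ps, Tagap, Tagap1 and Fndc1 in each of the 66 libraries, by group, with the 3 saline libraries of WT at ZT7 in black, their cocaine counterparts in dark red, other saline and ZT3 libraries in grey and other cocaine libraries in light red. Replicates 1 and 2 of WT ZT7 cocaine (1.23 and 1.22 FPKM of Tagap) and replicate 3 of WT ZT15 cocaine (206 FPKM of Tmem181b-ps) stand out in several panels.

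Whether the effect at ZT7 depends on D2R was asked by comparing it with that in iMSN-D2RKO mice, which share no library with WT. Drd2 does not check these labels, being at 375, 103 and 158 FPKM in the libraries labelled iMSN-D2RKO saline and 130, 229 and 118 in those labelled iMSN-D2RKO cocaine. A deletion of part of the gene need not lower its FPKM. At an adjusted p under 0.05, 1 gene (0.00744%) differed in its response, Stbd1, which encodes a protein that binds glycogen, and 860 had an unadjusted p under 0.05. In WT, Stbd1 was at 0.872, 1.17 and 0.654 FPKM in saline and 0.141, 0.118 and 0.240 in cocaine (log2 fold change -0.69, standard error 0.14, adjusted p = 0.0556 from limma, and 0.0387 without replicate 3 of cocaine). In iMSN-D2RKO it was at 0.0343, 0.188 and 0.317 FPKM in saline and 0.951, 0.628 and 0.166 in cocaine (0.40, standard error 0.14). All of these values lie near or below 1 FPKM, and the groups of iMSN-D2RKO overlapped. Stbd1 was tested only because replicate 2 of WT saline, in the group where it was high, reached 1 FPKM. The difference between the effects was 1.09 (adjusted p = 0.0160 from limma). This call was lost without replicate 1 or replicate 2 of any of the 4 groups, WT or iMSN-D2RKO, left out 1 at a time. Of the iMSN-D2RKO libraries, 2 were unusual, replicate 1 of saline with a total of 690048 FPKM and replicate 2 of cocaine, which is 1 of the 13 that stand apart. Without both, the difference was 0.97 with an adjusted p of 0.833. Then 0 genes were called by limma and 97 had an unadjusted p under 0.05.

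For the immediate early genes, Fosb had a log2 fold change of 0.06 (standard error 0.33) in iMSN-D2RKO, Egr3 one of 0.43 (0.29) and Crem one of 0.04 (0.18), with adjusted p-values of the difference from WT of 0.637 for Fosb, 0.770 for Egr3 and 0.637 for Crem from limma. The median of the list was -0.35 in iMSN-D2RKO, and -0.08 without the 2 libraries. For MSN markers these medians were -0.02 and 0.13, against 0.34 in WT. Of the 252 genes with an unadjusted p under 0.05 in WT, 207 (82.1%) had the same sign in iMSN-D2RKO without the 2 libraries, and 65.6% of all genes had. With all 6 libraries the shares were 73.4% and 55.8%.

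At ZT11, 8 h after the injection, Tmem181b-ps was again higher in all 3 cocaine libraries, whereas Tagap, Fosb and Spryd3 overlapped between treatments. Fosb was then at 4.65, 5.03 and 3.65 FPKM in saline and 4.11, 4.11 and 3.89 in cocaine, and Spryd3 at 85.8, 73.2 and 70.3 FPKM against 66.4, 74.0 and 75.3. The median log2 fold change at ZT11 was -0.07 for immediate early genes, 0.02 for MSN markers and -0.14 for oligodendrocyte and for microglia markers. Of the 252 genes, 73 (29.0%) had the same sign at ZT11 as at ZT7, against 47.2% of all genes. Pvalb, low after cocaine at ZT7 in 2 libraries, was at 4.77, 5.80 and 7.05 FPKM in saline and 98.3, 6.97 and 12.7 in cocaine at ZT11. The test of the difference between the 2 time points called 0 genes by limma, with 221 at an unadjusted p under 0.05.

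**Figure D5:**
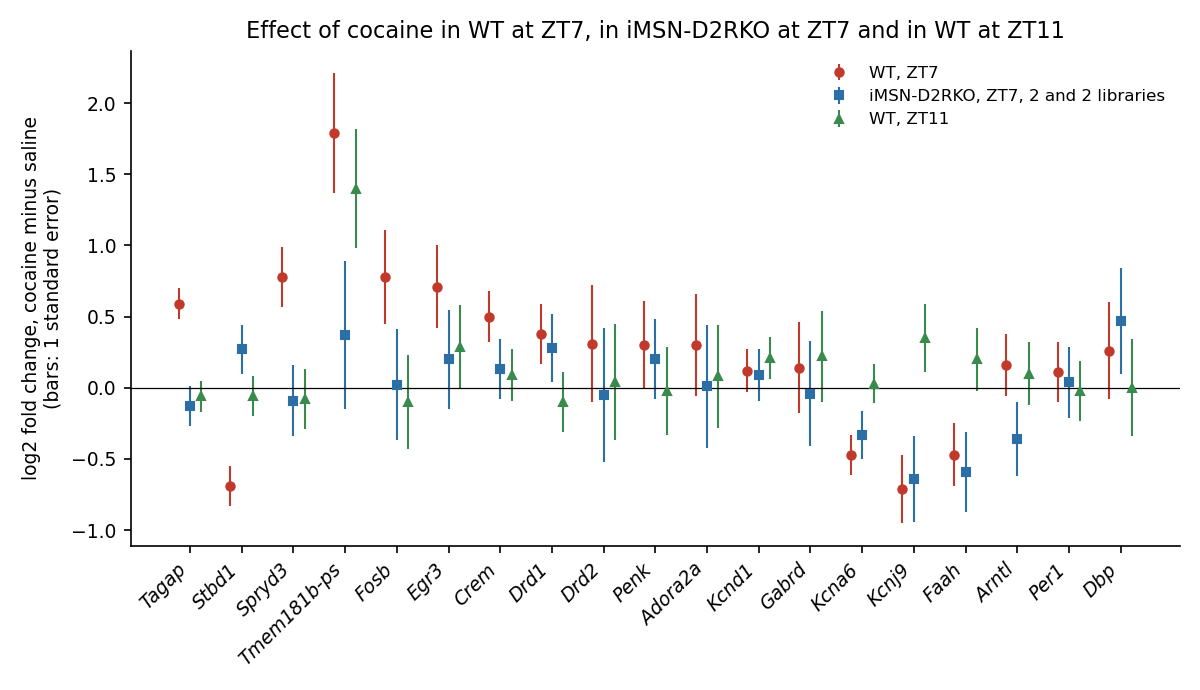
Log2 fold changes, cocaine minus saline, of 19 genes in WT at ZT7 (red circles), in iMSN-D2RKO at ZT7 without the 2 libraries named in the text (blue squares) and in WT at ZT11 (green triangles), with 1 standard error. Tagap, Spryd3 and Fosb lie at 0.59, 0.78 and 0.78 in WT at ZT7 and between -0.13 and 0.02 in the other comparisons, and Tmem181b-ps lies at 1.79, 0.37 and 1.4.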

How the data were processed

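Punches of ventral striatum were sequenced by the authors as stranded mRNA libraries. Single-end reads were mapped by the authors with Bowtie2 2.3.4 and TopHat 2.1.1 on mm10, followed by Cufflinks (0.12.1 as printed), Cuffmerge, Cuffquant and Cuffnorm. The deposited values are gene FPKM, normalized by the authors across libraries. Options and annotation release are not given in the sources used here. The 6 libraries of ZT3 appear under both treatments with equal values and entered the model once. Table entries that join several genes (355) were kept as 1 gene.

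Genes that reached 1 FPKM in any of the 6 libraries were tested on log2(FPKM + 1) with limma 3.58.1 (R 4.3.3), in a model of 22 group means over 66 libraries, with an empirical Bayes trend and Benjamini-Hochberg adjustment over 13444 genes. The model gives all groups 1 shared estimate of the spread. Distances were tested by exact permutation. The fit was checked on simulated data. Positions are those of RefSeq on GRCm38.p6.

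The members and the 31 lists (482 of 540 genes tested) were chosen with earlier results of these data known. Named were all called genes, the 10 genes with the smallest p in each direction among those with a mean of at least 5 FPKM, genes the study follows, list members with an unadjusted p under 0.05 or else the 2 with the highest FPKM, and Tagap. Other genes named, such as Fos, Nrn1, Oxt and those of chromosome 17, were chosen after their values were seen.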

Additional observations from a re-analysis of the deposited data

Results flagged for a closer look

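Stbd1 was the 1 gene whose response to cocaine at ZT7 differed between the genotypes by a test of the difference itself. Its log2 fold change was -0.69 in WT and 0.40 in iMSN-D2RKO, a difference of 1.09 (adjusted p = 0.0160 from limma, 3 libraries in each of the 4 groups). It was lower in 3 of 3 WT cocaine libraries than in any WT saline library. Of the WT libraries of ZT7, only replicate 2 of saline, at 1.17 FPKM, reached the minimum of 1 FPKM, so Stbd1 was tested through the group where it was high. In iMSN-D2RKO at ZT7 all values lay below 1 FPKM, from 0.0343 to 0.951, and the groups overlapped. In the other 15 WT libraries without cocaine it ran from 0.105 to 1.36 FPKM with a median of 0.283, so the WT saline libraries of ZT7, at 0.654 to 1.17 FPKM, lay in the upper part of that range. Without replicate 2 of iMSN-D2RKO cocaine, 1 of the 13 libraries that stand apart, no gene was called for this difference by limma, and 426 had an unadjusted p under 0.05. No gene was called either without replicate 1 or replicate 2 of any of the 4 groups, left out 1 at a time. Without replicate 3 of a group, 1 to 3 genes were called.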

How the results depend on the processing

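The 1 call at ZT7 depended on the processing. Against 1 gene, 0 were called with a pseudocount of 0.1, with a mean of at least 5 FPKM, in the 12 libraries of ZT7, in the 33 WT libraries or in the 6 libraries alone, with 238, 139, 180, 357 and 745 genes at an unadjusted p under 0.05 in limma, in that order. Tagap and Stbd1 are too low to be among the genes with a mean of at least 5 FPKM, so that setting says nothing on their calls. With no filter 3 were called (Tagap, 9030025P20Rik and Stbd1), and with outliers removed by Dixon's test at 95% there were 5. Leaving out 1 library gave 0 to 8 calls, the most without replicate 3 of cocaine (Tagap, Stbd1, Tmem181b-ps, Cercam, 1810063I02Rik, Mir6365, Mir6372 and Mir6390), 5 without replicate 2 (4 of them short RNAs above 0 in 1 library), 2 without replicate 3 of saline and 0 without replicate 2 of saline. The replicate block (libraries of 1 number paired within genotype and time) left 0 calls in all libraries (238 genes at an unadjusted p under 0.05) and in the 6 alone (961). Whether the numbers pair these libraries is not known. Deviations of libraries with the same number correlated at 0.24, -0.18 and 0.06, and those of libraries with different numbers at -0.3 to 0.22. So few correlations with overlapping ranges cannot settle it. For the genotype difference, 0 genes were called with a pseudocount of 0.1, a mean of at least 5 FPKM, the 12 libraries alone, without the libraries that stand apart, with the replicate block and without the 2 iMSN-D2RKO libraries (chosen after seeing the data), with 97 to 936 genes at an unadjusted p under 0.05, 3 with no filter or with outliers removed, and 0 to 3 with 1 library left out. For ZT11 against ZT7, 2 were called with outliers removed, and 0 to 1 with 1 library left out. The distance between treatments minus that within ran from -0.0088 without replicate 2 of saline to 0.0597 without replicate 3 of cocaine. The log2 fold changes of Mir6365, Mir6372, Mir6387, Mir6390 and Snora62 were 0 once their single library was left out or removed as an outlier. With 1 library left out they ran from 0 to 5.43 for Mir6365, 3.93 for Mir6372, 3.8 for Mir6387, 2.58 for Mir6390 and -2.61 for Snora62, and from 0 to 0.84 for S100a9. Medians of the lists moved by less than the spread between libraries in 306 cases and by more in 4. The cause of these shifts was not tested. Read depth is unknown, and with 3 libraries a group 54.9% of genes with a mean of at least 5 FPKM had an interval within 1.5-fold.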
